A study of Rattus norvegicus with 12 samples.

Results

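The genes described here encode the subunits of 3 large machines that act on protein-coding genes in the nucleus: RNA polymerase II itself, the Mediator complex and the Integrator complex, with the pausing factor NELF, the elongation factor DSIF and Supt6h. They were chosen by symbol: every gene named Med, Ints or Polr2a to Polr2m with a number or letter, plus Nelfa, Nelfb, Nelfcd, Nelfe, Supt4h1, Supt5h and Supt6h. This gave 63 of 32883 genes in the tables: 12 of RNA polymerase II, 3 of DSIF and Supt6h, 4 of NELF, 14 of Integrator and 30 of Mediator. Ints1 and Polr2l were not analysed here. All 63 passed the filter on low values that left 13793 genes for testing.

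RNA polymerase II transcribes messenger RNA and many small nuclear RNAs. Mediator bridges transcription factors bound at enhancers and the polymerase at the promoter, and its head, middle and tail modules can carry a separable kinase module that holds a cyclin-dependent kinase. After initiation, NELF and DSIF hold the polymerase shortly downstream of the start, and the kinase P-TEFb, which the title of the study names, phosphorylates DSIF, NELF and the tail of the polymerase so that elongation goes on. Integrator cleaves nascent RNA near the start of genes and at small nuclear RNA genes, and it also carries a protein phosphatase. JQ1 is an inhibitor of the BET family of proteins, which it displaces from acetylated chromatin. In cardiomyocytes these steps are studied because hypertrophy brings a general increase in RNA synthesis.

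Cardiomyocytes from 1 to 3 day old Sprague-Dawley rats had been kept in culture with 7% serum and 10 µM AraC, a blocker of DNA synthesis that keeps dividing non-muscle cells down, and then without serum and AraC before treatment. The groups were endothelin-1 (ET-1, 100 nM) with JQ1 (1 µM), phenylephrine (PE, 10 µM) with JQ1, acetic acid vehicle with JQ1, ET-1 with DMSO, PE with DMSO, and acetic acid vehicle with DMSO. Treatment lasted 24 h, and each group held 2 libraries of ribosome-depleted RNA numbered replicate 1 and replicate 2, 12 in all. Nothing in the labels states whether a replicate was its own culture or litter, so p-values here speak of sample-to-sample spread only, possibly a technical one.

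Levels are in FPKM, a fragment count set per length of transcript and per library total, summed over the transcripts of a gene and rescaled between libraries. They are thus relative to the other genes of a library, and a change in total RNA per cell would not show. Genes said below to rise or fall did so relative to other genes. Since FPKM is per length, levels can be compared between genes, but only roughly. Sums over transcripts annotated in pieces run high, as given below. Coverage per library was 2.341 to 2.965 Gb, of which the 63 genes took 0.2415 to 0.3625%. All 8 cardiomyocyte markers were present, with summed levels of 15414 to 24441 in JQ1 libraries and 12302 to 18471 in DMSO libraries. Of markers of other cells, all 8 for fibroblasts were at 1 or more on average (summed 109 to 660 with JQ1, 212 to 1334 with DMSO), as were 4 of 5 for mural cells (26.0 to 74.4 with JQ1, 75.6 to 210 with DMSO). Fibroblast sums split by replicate number: with JQ1 they were 506 to 660 in the first replicates and 109 to 147 in the second, and with DMSO 876 to 1334 and 212 to 324. The mural sum was higher with agonists, at 52.6 to 74.4 against 26.0 to 35.0 with vehicle under JQ1 and 152 to 210 against 75.6 to 78.3 with vehicle in DMSO. Macrophage markers summed to 2.75 to 11.8 with JQ1 and 5.39 to 18.8 with DMSO, with 2 of 6 at 1 or more. Endothelial (0 of 5), red blood cell (1 of 2) and Schwann cell or neuronal markers (1 of 3) summed to at most 3.21 in any library. Fewer cells of a type and less RNA per cell cannot be told apart in such samples, and the part of the fibroblast, mural and macrophage shares in the results below was not tested.

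The levels spanned a wide range within each complex. In RNA polymerase II the row named Polr2m, a sum over unlike transcripts described below, was highest at 213 ± 98.4 (SD over 12 libraries). Polr2a, the gene of the catalytic subunit, was lowest at 3.03 ± 1.53. Between them, Polr2f (104), Polr2k (84.6) and Polr2e (83.9), whose products are shared by all 3 nuclear polymerases, stood above Polr2j, Polr2g, Polr2b, Polr2d and Polr2c (53.4 to 40.2), and Polr2h (8.81) and Polr2i (6.92) stood far below. The ranges of Polr2f, Polr2k and Polr2e over the 12 libraries overlapped. Supt5h was at 88.7 ± 15.1, Supt4h1 at 24.7 ± 3.13 and Supt6h at 17.0 ± 1.62.

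In NELF, Nelfb was highest (31.1 ± 2.12) and Nelfa lowest (4.24 ± 0.55), while the ranges of Nelfe (21.8) and Nelfcd (19.6) overlapped each other. Integrator levels ran down from Ints8 (34.9 ± 6.72) and Ints13 (30.3) to Ints6l (4.32) and Ints9 (3.68 ± 0.86). Mediator levels ran down from Med21 (37.9 ± 13.3) and Med29 (36.3) to Med12 (3.45), Med26 (3.14), Med12l (3.05) and Med15 (2.97 ± 0.37). The ranges of neighbours in the Integrator and Mediator orders overlapped, except those of Ints4 and Ints6l and, by a narrow margin, those of Med29 and Med20. In NELF the range of Nelfb (29.1 to 37.1) lay above that of Nelfe (15.9 to 27.2). That of Nelfa (3.55 to 5.21) lay below that of Nelfcd (11.3 to 30.8). Supt5h is annotated in pieces, as 12-exon transcripts of the 3′ part beside 16-exon and 18-exon transcripts of the 5′ part, so that summed FPKM counts its length in pieces: from the coverage summed over the longest transcript its level was 57.6, 1.54 times lower. That ratio was 1.69 for Med12l and 1.34 for Polr2e, so the places of these 2 genes in the orders above are uncertain.

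**Figure D1:**
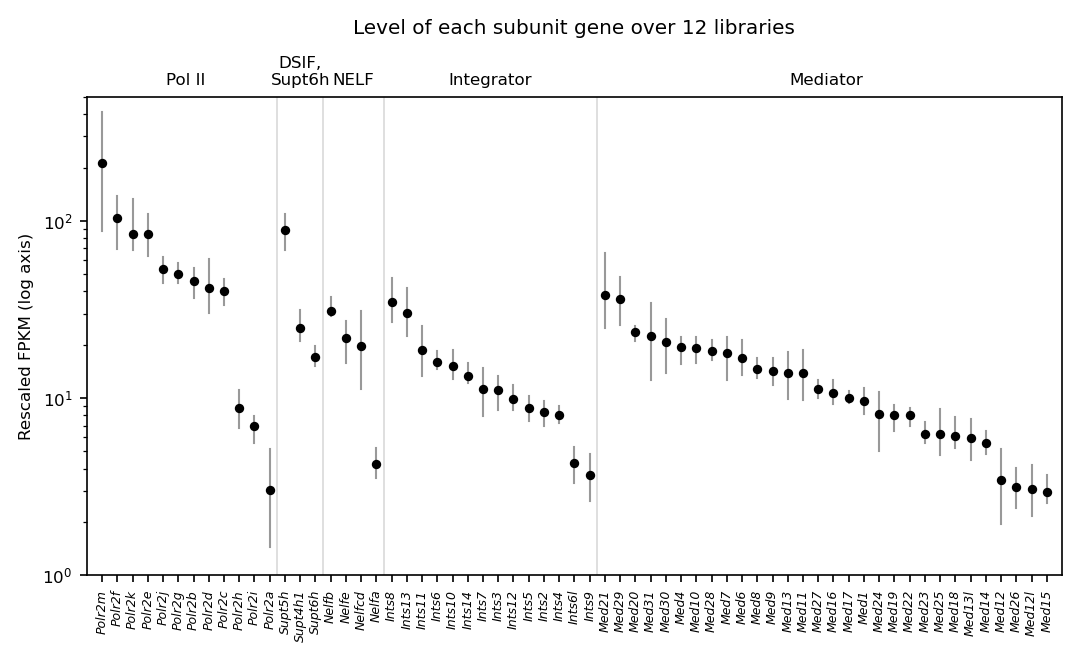
Level of each of the 63 genes (rescaled FPKM, log axis) by complex. Points are means and lines the lowest to highest of the 12 libraries. Among the polymerase genes Polr2a sits lowest and the row named Polr2m, a sum over unlike transcripts, highest.

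RefSeq (build GRCr8) held a promoter window, 250 bases before to 50 after the annotated start, for 53 of the 63 genes. No window was at hand for Ints8, Ints9, Ints10, Med1, Med15, Med18, Med27, Med30, Polr2c and Polr2k. The windows of 4 genes are given because these genes carry the changes described below: Polr2a and Med31 rose most with JQ1, and Nelfcd and Med12 were among those that fell most. Capitals mark GC boxes (GGGCGG, on either strand), CCAAT boxes (CCAAT), the TATA box (TATAAA), ETS sites (CCGGAAG) and the YY1 core (AAGATGG). The marked stretches do not overlap one another. The E-box (CACGTG) was also searched and is in none of the 4. The windows are chr10:54977130-54977429 on the minus strand for Polr2a, chr10:57338840-57339139 on the minus strand for Med31, chr3:183631718-183632017 on the plus strand for Nelfcd and chrX:70444560-70444859 on the plus strand for Med12, all on GRCr8.
Polr2a: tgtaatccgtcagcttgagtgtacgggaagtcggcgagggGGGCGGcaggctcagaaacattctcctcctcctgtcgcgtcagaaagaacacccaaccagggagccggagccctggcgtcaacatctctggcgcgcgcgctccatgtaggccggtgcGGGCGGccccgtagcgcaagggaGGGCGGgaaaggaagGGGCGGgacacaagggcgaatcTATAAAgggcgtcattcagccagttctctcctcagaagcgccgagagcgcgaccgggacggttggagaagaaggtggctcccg
Med31: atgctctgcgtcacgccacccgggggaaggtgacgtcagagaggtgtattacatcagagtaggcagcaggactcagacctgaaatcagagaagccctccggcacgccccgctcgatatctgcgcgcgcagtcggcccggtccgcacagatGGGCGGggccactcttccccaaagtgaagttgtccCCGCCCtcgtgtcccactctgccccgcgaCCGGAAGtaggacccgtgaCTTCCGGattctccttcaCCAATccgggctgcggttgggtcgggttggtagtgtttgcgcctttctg
Nelfcd: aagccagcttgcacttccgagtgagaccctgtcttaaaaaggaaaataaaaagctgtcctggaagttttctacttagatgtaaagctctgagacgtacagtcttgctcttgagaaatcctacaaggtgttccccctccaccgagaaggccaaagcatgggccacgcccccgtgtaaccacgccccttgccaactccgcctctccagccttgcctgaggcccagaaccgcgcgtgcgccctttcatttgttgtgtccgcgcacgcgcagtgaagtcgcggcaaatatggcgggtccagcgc
Med12: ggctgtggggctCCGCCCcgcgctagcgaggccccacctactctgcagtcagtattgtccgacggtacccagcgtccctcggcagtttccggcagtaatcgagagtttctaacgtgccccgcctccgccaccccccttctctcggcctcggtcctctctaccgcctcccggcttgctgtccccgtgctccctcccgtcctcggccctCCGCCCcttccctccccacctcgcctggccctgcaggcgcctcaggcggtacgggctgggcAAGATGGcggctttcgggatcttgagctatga
The Polr2a window held 4 GC boxes and a TATA box whose first base lies at -33 relative to the start. The Med31 window held 2 GC boxes, 1 CCAAT box and 2 ETS sites, and the Med12 window 2 GC boxes and 1 YY1 core. The Nelfcd window held none of the 6 motifs in these exact letters.

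Over the 53 windows a GC box was found in 75.5%, against 33.1% of 33469 rat promoter windows. All 53 genes had passed the filter on low values, while the 33469 windows were not limited to such genes. The part of that unlikeness in the shares given here was not tested. An ETS site was found in 26.4% of the members' windows and 8.75% of all windows, a YY1 core in 15.1% and 7.01%, a CCAAT box in 41.5% and 37.5%, and an E-box in 11.3% and 6.42%. A TATA box was in 3.77% of the members' windows, which are 2 windows, and in 14.2% of all. The median GC content was 59.7% in the members' windows and 51.7% in all windows, and the part of that composition in the motif shares was not tested. Among windows of genes that rose with JQ1, fell with JQ1 or were not called, a GC box was in 16 of 21, 10 of 14 and 14 of 18. An ETS site was in 5 of 21, 5 of 14 and 4 of 18 of the same sets. These matches describe letters, not binding.

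JQ1 was compared with DMSO in vehicle, ET-1 and PE cultures and as the mean of those 3 differences. In the mean, 25 members rose and 16 fell with an adjusted p under 0.05 (limma, Benjamini-Hochberg over all 13793 genes), while 30.2% of all tested genes rose and 29.9% fell. That is 65.1% of the members, against 60.1% of all tested genes, so the share of members called stands near that of all genes. The median difference of the members was 0.03 on the log2 scale and that of all genes 0.02. The members that fell include the row named Polr2m, which mixes unlike transcripts as described below. The split into members that rose and fell depends on the scaling of the libraries. With FPKM as deposited 18 rose and 19 fell, beside 2953 and 4518 of 13858 genes. With factors from long, well-covered genes 18 rose and 23 fell, beside 2949 and 5079 of 13837 genes. Under those scalings the median of all genes moved to -0.06 and -0.09, and 33 and 34 of the 41 calls remained in the same direction.

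JQ1 libraries lay entirely above DMSO libraries for 19 members (30.2%, against 17.9% of all genes) and entirely below for 7 (11.1%, against 18.5% of all genes), while 37 overlapped. These ranges were taken under the main scaling only, and all genes include many low ones. With the filter set at 5 FPKM, 3566 of 10230 genes were called higher and 2796 lower in the mean. Folds here and below were taken after 0.5 was added to FPKM, which understates those of low genes. Most differences were small: 11 of the 41 called members differed by 1.5-fold or more and 1, Polr2a, by more than 2-fold. The 11 include the row named Polr2m. Within the single treatments, 19 members rose and 6 fell in vehicle cultures (32% of all genes were called), 18 rose and 7 fell with ET-1 (37.5% of all genes), and 16 rose and 8 fell with PE (36.5% of all genes). With the replicate number as a block these counts were 20 and 14 in vehicle, 22 and 17 with ET-1, and 23 and 15 with PE, where 52.8%, 56.9% and 56.4% of all genes were called. In the mean of the 3 the block called 27 members higher and 19 lower (73.5% of all genes). Of the 63 members, 50 differed in the same direction in all 3 treatments, and 16 were called higher and 5 lower in each of them. These counts were not taken over all genes, so they are no result about the members. The DMSO groups of the 3 treatments are separate libraries. The counts with a library left out, given next, stand without the share of all genes, so they too are no result about the members. Without vehicle JQ1 replicate 1 the vehicle count was 15 in place of 25, and without PE JQ1 replicate 1 or PE DMSO replicate 2 the PE count was 14 or 15 in place of 24.

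**Figure D2:**
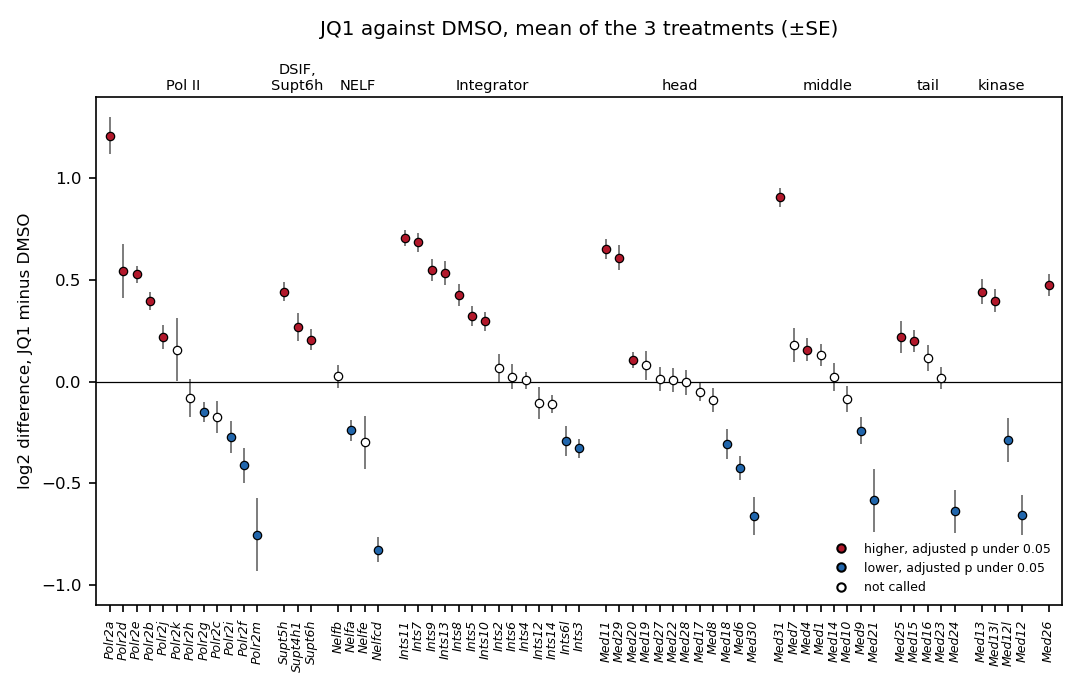
Difference between JQ1 and DMSO (log2, mean of the 3 treatments, ± SE) for the 63 genes, ordered within each complex and Mediator module. Filled points passed an adjusted p of 0.05; RNA polymerase II, Integrator and Mediator hold filled points on both sides of 0.

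In RNA polymerase II, 5 genes rose and 4 fell with JQ1, beside 30.2% and 29.9% of all tested genes. The 4 include the row named Polr2m, which mixes unlike transcripts as described below. The genes of the largest subunits were among those that rose. Polr2a encodes the largest subunit, whose C-terminal repeats are the substrate of P-TEFb (ENSRNOG00000028834, chromosome 10, 56339284 to 56365084, minus strand on rn6, its promoter given above). It lay at 3.59, 4.28 and 5.13 FPKM (lowest, median and highest of 6) in JQ1 libraries, against 1.44, 1.67 and 1.77 in DMSO libraries. All JQ1 libraries stood far above all DMSO libraries, with the widest spread between replicates in the ET-1 cultures with JQ1 (5.13 and 3.59). The difference was 1.21 ± 0.09 (adjusted p = 1.42e-05), a 2.32-fold rise after 0.5 was added to FPKM, which understates the rise in FPKM itself. Mean FPKM with JQ1 and with DMSO was 4.28 and 1.74 in vehicle, 4.36 and 1.45 with ET-1, and 4.68 and 1.67 with PE. With 0.5 added, the fold was 2.14 in vehicle, 2.46 with ET-1 and 2.38 with PE. The log2 difference was 1.34 within replicate 1 and 1.09 within replicate 2.

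Polr2b, the gene of the second-largest subunit, which forms the catalytic cleft with the product of Polr2a, lay at 48.7, 53.3 and 54.0 in JQ1 libraries against 36.7, 40.0 and 42.6 in DMSO libraries, without overlap (0.40 ± 0.04, adjusted p = 0.000116). Polr2e, shared by the 3 polymerases, lay at 94.5, 97.4 and 109 with JQ1 against 63.2, 70.0 and 73.5 with DMSO, again without overlap (0.53 ± 0.04, adjusted p = 2.15e-05). Polr2d, a subunit of the detachable stalk, rose by 0.55 ± 0.13 (adjusted p = 0.00765), but its groups overlapped (39.5 to 61.1 with JQ1, 30.1 to 41.3 with DMSO). Its stalk partner Polr2g fell by 0.15 (adjusted p = 0.0249). Polr2j, which pairs with the product of Polr2c in the assembly platform, rose by 0.22, and its groups did not overlap (52.8 to 62.6 with JQ1, 44.9 to 52.1 with DMSO). Polr2c differed by -0.17 (adjusted p = 0.0837, and 0.00322 with the replicate block), and it was called under both other scalings.

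Polr2f, another shared subunit, lay at 69.8, 87.2 and 110 in JQ1 libraries against 89.3, 122 and 137 in DMSO libraries, which overlapped (-0.41 ± 0.09, adjusted p = 0.00379). Polr2i, a small subunit known for roles in transcription fidelity, lay between 5.58 and 6.99 with JQ1 and just above, between 7.00 and 7.97, with DMSO (-0.27 ± 0.08, adjusted p = 0.0181). The other shared subunits Polr2h (-0.08) and Polr2k (0.16) were not called, with adjusted p of 0.477 and 0.411. The rise of Polr2j ended with either other scaling (adjusted p = 0.0864 and 0.114), as did the fall of Polr2g with FPKM as deposited (adjusted p = 0.0644). That of Polr2g also ended when any 1 of 6 libraries was left out, replicate 1 of the 3 DMSO groups or replicate 2 of the 3 JQ1 groups (adjusted p of 0.0557 to 0.0681).

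**Figure D3:**
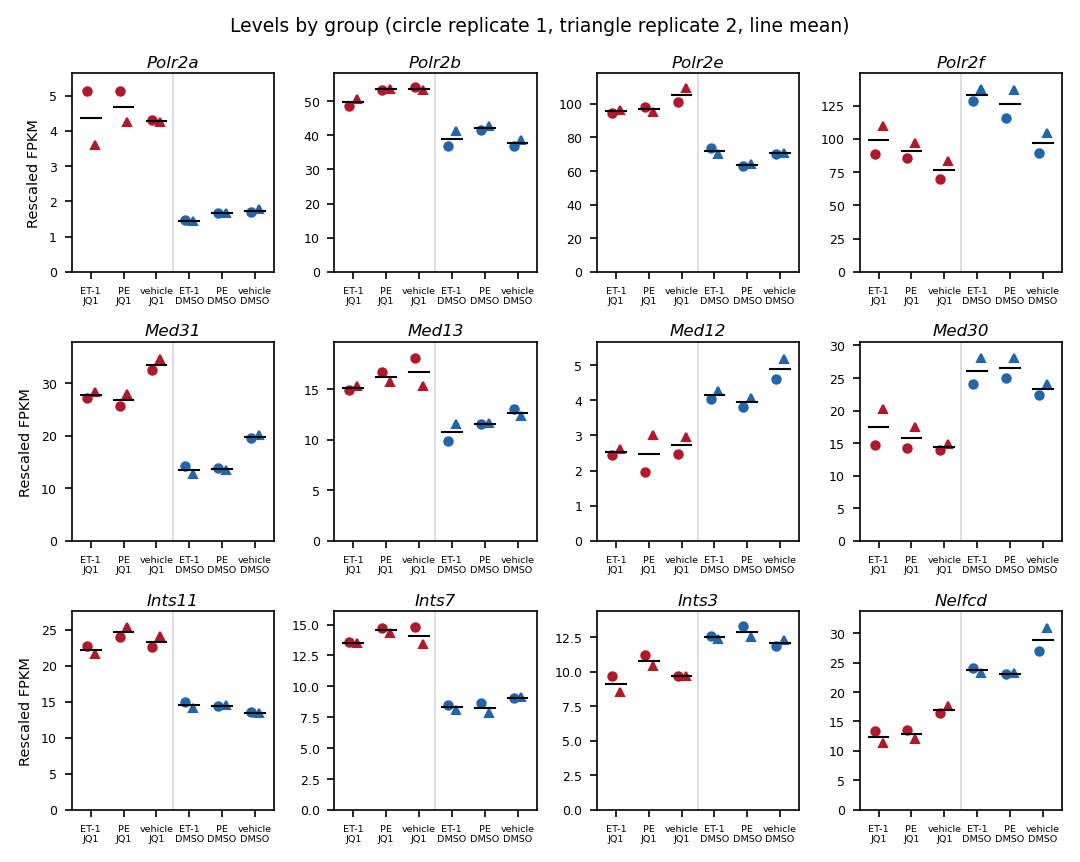
Rescaled FPKM of 12 members in the 6 groups, JQ1 groups in red and DMSO groups in blue, with both replicates and their mean. Polr2a, Polr2b, Polr2e, Med31, Med13, Ints11 and Ints7 stand higher in every JQ1 library, and Med12, Med30, Ints3 and Nelfcd lower, while Polr2f overlaps.

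The row named Polr2m, the gene of Gdown1, a factor that binds the polymerase and makes its activity depend on Mediator, holds 3 transcripts of very unlike levels. A 13-exon transcript spanning 87376 bases took 86.7% of the FPKM, and a 4-exon transcript spanning 7432 bases took 13.1%. A 15-exon transcript spanning 110209 bases was at 2.15 in PE JQ1 replicate 1 and 2.16 in PE DMSO replicate 2 and listed at 0 in the other libraries. RefSeq gives Polr2m a span of 7432 bases, equal to that of the 4-exon transcript, and gives Myzap, the gene of an intercalated-disc protein of heart muscle, a span of 87335 bases, close to that of the 13-exon transcript. As a sum, the row fell by 0.75 ± 0.18 with JQ1 (adjusted p = 0.00711). The 13-exon transcript averaged 135 ± 63.0 in JQ1 libraries and 235 ± 106 in DMSO libraries (SD, n = 6 each).

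The 4-exon transcript averaged 24.0 ± 4.22 in JQ1 libraries and 31.8 ± 6.01 in DMSO libraries. Each JQ1 library lay below the DMSO library of the same treatment and replicate number, although the groups overlapped. Taken alone, it differed by -0.40 ± 0.17 (adjusted p = 0.0688, and 0.00033 with the replicate block). With ET-1 and with PE against vehicle it differed by 0.09 ± 0.29 and 0.03 ± 0.29, while the summed row differed by -0.98 and -1.01, so that the lower value with agonists lay in the 13-exon transcript. The summed row thus mixes unlike transcripts, and its values are not taken below as those of Gdown1.

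**Figure D4:**
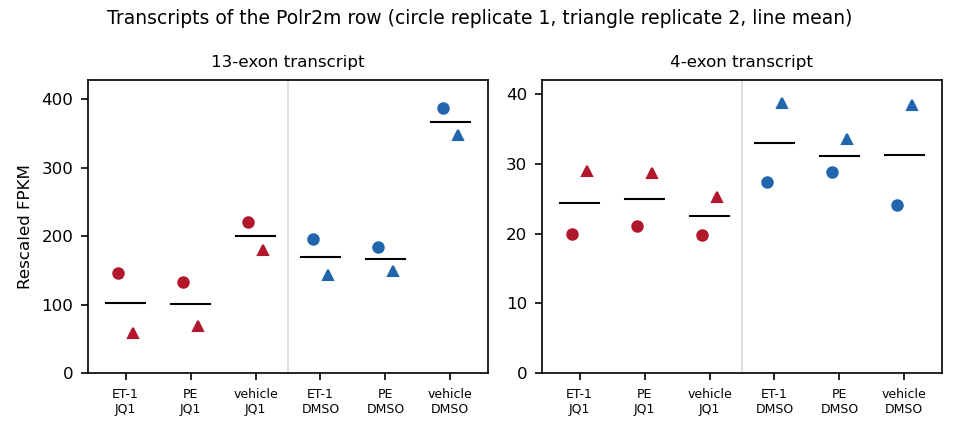
Rescaled FPKM of the 13-exon and the 4-exon transcript of the row named Polr2m in the 6 groups, JQ1 groups in red and DMSO groups in blue. The 13-exon transcript is lower with ET-1 and PE than with vehicle on either side, and the 4-exon transcript is not.

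All 3 genes of DSIF and Supt6h rose with JQ1, as did 30.2% of all tested genes. Supt5h, the large subunit of DSIF and a substrate of P-TEFb, lay at 96.5, 102 and 109 in JQ1 libraries against 68.6, 74.4 and 85.1 in DMSO libraries, without overlap (0.44 ± 0.05, adjusted p = 8.27e-05). Its small partner Supt4h1 lay at 25.1, 25.7 and 31.5 with JQ1 against 21.0, 22.5 and 23.7 with DMSO, also without overlap (0.27 ± 0.07, adjusted p = 0.00934). Supt6h, a histone chaperone that travels with the elongating polymerase, rose by 0.21 ± 0.05 (adjusted p = 0.00773) with overlapping groups. The call of Supt6h ended with FPKM as deposited (adjusted p = 0.303), with factors from long genes (0.09, adjusted p = 0.215) and with its leading transcript alone (adjusted p = 0.944). That of Supt4h1 ended with factors from long genes (0.16, adjusted p = 0.06), so that Supt5h was the only one of the 3 called under all 3 scalings.

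In NELF, 2 of 4 genes fell with JQ1 and none rose, while 29.9% of all tested genes fell and 30.2% rose. Nelfcd, the subunit that joins the 2 lobes of the complex (ENSRNOG00000047874, chromosome 3, 172510874 to 172526740, plus strand on rn6), lay at 11.3, 13.5 and 17.6 in JQ1 libraries against 23.0, 23.7 and 30.8 in DMSO libraries. No JQ1 library reached the lowest DMSO library. The difference was -0.83 ± 0.06 (adjusted p = 1.47e-05), a 1.77-fold fall, and it was -0.74 in vehicle, -0.91 with ET-1 and -0.83 with PE. Nelfa, which contacts the polymerase, lay at 3.55, 3.75 and 4.33 with JQ1 against 4.08, 4.56 and 5.21 with DMSO and fell by 0.24 (adjusted p = 0.00388). Nelfe, the RNA-binding subunit, lay at 15.9 to 24.4 with JQ1 and 19.7 to 27.2 with DMSO (-0.30 ± 0.13, adjusted p = 0.0771, and 0.00095 with the replicate block), and it was called under both other scalings (adjusted p = 0.0054 and 0.0147). Nelfb differed by 0.03 ± 0.06 (adjusted p = 0.708), and its sign turned with either other scaling.

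In Integrator, 7 of 14 genes rose and 2 fell with JQ1, beside 30.2% and 29.9% of all tested genes. Both genes of its RNA endonuclease rose. Ints11, the catalytic subunit, lay at 21.7, 23.4 and 25.4 in JQ1 libraries against 13.4, 14.2 and 14.99 in DMSO libraries (0.71 ± 0.04, adjusted p = 5.14e-06). Ints9, its inactive homologue and partner, lay at 4.10, 4.49 and 4.83 with JQ1 against 2.63, 2.94 and 3.11 with DMSO (0.55 ± 0.05, adjusted p = 6.01e-05). Neither overlapped. Ints4, which holds that pair together, differed by 0.01 ± 0.04 (adjusted p = 0.916).

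Ints7, a scaffold subunit, lay at 13.4, 14.0 and 14.8 with JQ1 against 7.88, 8.60 and 9.12 with DMSO, the second-largest rise in the complex (0.69 ± 0.05, adjusted p = 9.79e-06). Ints13 and Ints10, members of the arm module, rose by 0.54 (adjusted p = 0.000105) and 0.30 (adjusted p = 0.000734), while Ints14 of the same module differed by -0.11 (adjusted p = 0.0587, and 0.0227 with the block). Of the subunits that hold the phosphatase, Ints8 rose by 0.43 (adjusted p = 0.000212) and Ints5 by 0.32 (adjusted p = 0.000663), and Ints6 differed by 0.02 ± 0.06 (adjusted p = 0.752). The paralogue Ints6l fell by 0.29 (adjusted p = 0.0098). Ints3, which also belongs to a complex that binds single-stranded DNA, lay at 8.51, 9.70 and 11.2 with JQ1 against 11.9, 12.4 and 13.3 with DMSO, without overlap (-0.33 ± 0.05, adjusted p = 0.000503). Ints2 (0.07) and Ints12 (-0.11) were not called. Both other scalings, however, called Ints12 and Ints14. With FPKM as deposited, 6 Integrator genes rose and 4 fell, and with factors from long genes 7 rose and 4 fell.

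In Mediator, 10 of 30 genes rose and 8 fell with JQ1, while 30.2% of all tested genes rose and 29.9% fell. That is 60% called, against 60.1% of all tested genes, so the count is no result about the complex. Members of the head, middle, tail and kinase modules were on both sides. Modules here and below follow 1 fixed assignment of the subunits, and the counts hold for that assignment only. The head had 3 that rose and 3 that fell among 12, and the middle 2 and 2 among 8. The tail had 2 and 1 among 5, and the kinase module 2 and 2 among 4. Med26, placed in none of these modules, also rose. Under the other scalings the complex split into 6 that rose and 8 that fell (FPKM as deposited) and 6 that rose and 11 that fell (factors from long genes).

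Med31, a small middle subunit at the junction with the head (ENSRNOG00000014618, chromosome 10, 58780597 to 58784374, minus strand on rn6), rose most. It lay at 25.7, 28.2 and 34.5 in JQ1 libraries against 12.7, 14.0 and 20.2 in DMSO libraries, without overlap. The difference was 0.91 ± 0.05 (adjusted p = 3.6e-06), a 1.87-fold rise, and it was 0.74 in vehicle, 1.02 with ET-1 and 0.96 with PE. Its neighbour in the middle module, Med7, differed by 0.18 (adjusted p = 0.0973, and 0.0147 with the block), and Med21, which pairs with Med7, fell by 0.58 ± 0.16 (adjusted p = 0.0116). Med21 lay at 25.0, 27.5 and 40.8 with JQ1 against 28.8, 44.2 and 65.7 with DMSO, where replicate 2 was above replicate 1 in all 6 groups. Its difference was -0.24 in vehicle, -0.64 with ET-1 and -0.87 with PE.

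Of the other middle genes, Med4 rose by 0.16 (adjusted p = 0.0366) and Med9 fell by 0.24 (adjusted p = 0.0128). Med1, the subunit that nuclear receptors bind, lay at 9.17 to 11.3 with JQ1 and 8.10 to 11.4 with DMSO (0.13 ± 0.05, adjusted p = 0.0568, 0.0369 with the block, and 0.0304 and 0.0431 without vehicle DMSO replicate 2 or ET-1 DMSO replicate 2). Med14, the backbone that joins all modules, differed by 0.02 ± 0.07 (adjusted p = 0.797) and Med10 by -0.08. With factors from long genes Med10 was called. Med4 was not called under either other scaling, or when any 1 library was left out other than replicate 2 of vehicle with DMSO, PE with DMSO or ET-1 with JQ1 (adjusted p of 0.0625 to 0.0884 in the 9 others).

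In the head, Med11 lay at 15.7, 16.8 and 18.6 in JQ1 libraries against 9.79, 10.6 and 11.6 in DMSO libraries (0.65 ± 0.05, adjusted p = 1.6e-05), and Med29 at 40.6, 43.6 and 48.0 against 25.7, 29.1 and 30.8 (0.61 ± 0.06, adjusted p = 6.54e-05). Neither overlapped. Med30 lay at 13.9, 14.8 and 20.2 with JQ1 against 22.5, 24.6 and 28.1 with DMSO (-0.66 ± 0.09, adjusted p = 0.000395), and Med6 at 13.5, 14.0 and 15.4 against 18.0, 18.9 and 21.4 (-0.43 ± 0.06, adjusted p = 0.000335). Both lay below DMSO in every JQ1 library. Med18 fell by 0.30 (adjusted p = 0.00763) and Med20 rose by 0.11 (adjusted p = 0.0456), a call that ended under both other scalings and when any 1 library but ET-1 DMSO replicate 1 was left out (adjusted p of 0.0584 to 0.11). Med17, the head scaffold, differed by -0.05 ± 0.05 (adjusted p = 0.393), and Med8, Med19, Med22, Med27 and Med28 were between -0.09 and 0.08 and not called. Factors from long genes, however, gave calls for Med17 and Med8.

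In the tail, where activators bind, Med24 lay at 5.06, 6.28 and 7.86 in JQ1 libraries against 9.33, 9.76 and 10.8 in DMSO libraries, without overlap (-0.64 ± 0.10, adjusted p = 0.000968). Med15, a target of the sterol factor SREBP, rose by 0.20 ± 0.05 (adjusted p = 0.0123) with overlapping groups. Med25 rose by 0.22 (adjusted p = 0.0393), but its difference was -0.10 in vehicle against 0.37 with ET-1 and 0.39 with PE. Neither Med15 nor Med25 was called under the other scalings. The call of Med25 also ended when any 1 library was left out other than vehicle JQ1 replicate 1 or vehicle DMSO replicate 2 (adjusted p of 0.0526 to 0.0999). Med23, known as a partner of the factor Elk1, differed by 0.02 ± 0.05 (adjusted p = 0.774) and Med16 by 0.12. Med26, which recruits elongation factors, was not placed in the tail or another module. It lay at 3.47, 3.72 and 4.04 with JQ1 against 2.40, 2.50 and 2.73 with DMSO (0.47 ± 0.05, adjusted p = 0.000111).

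The kinase module split by paralogue pair. Med13, which tethers the module to the core, lay at 14.98, 15.6 and 18.1 in JQ1 libraries against 9.93, 11.6 and 13.1 in DMSO libraries (0.44 ± 0.06, adjusted p = 0.00031). Its paralogue Med13l rose by 0.40 ± 0.06 (adjusted p = 0.00041), also without overlap. Med12, which activates the kinase (ENSRNOG00000003848, chromosome X, 71174699 to 71197812, plus strand on rn6), lay at 1.95, 2.54 and 3.02 with JQ1 against 3.82, 4.17 and 5.17 with DMSO. Every JQ1 library was lower, and the difference was -0.66 ± 0.10 (adjusted p = 0.000545). Its paralogue Med12l fell by 0.29 ± 0.11 (adjusted p = 0.0472), a call that ended when any 1 library was left out other than ET-1 DMSO replicate 1 or ET-1 JQ1 replicate 2 (adjusted p of 0.0519 to 0.113). It also ended with no filter on low values (adjusted p = 0.0662) and with the leading transcript alone (adjusted p = 0.105).

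Reads of Med12 were divided among near-identical 45-exon and 46-exon transcripts in a way that changed from library to library. The leading transcript alone was at 1.68 to 2.05 in JQ1 libraries and 0.021 to 3.58 in DMSO libraries, and its mean difference had the opposite sign (0.08). Coverage summed over all transcripts, which does not depend on that division, was 1.87 to 2.25 with JQ1 and 3.20 to 4.46 with DMSO. For Med12l the summed coverage gave a difference of -0.156 ± 0.093 (adjusted p = 0.179), which was not called.

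Agonists were compared with vehicle in DMSO cultures to ask what ET-1 and PE did to these genes without JQ1. Few members passed. The part of the mural markers, which summed to 152 to 210 with an agonist against 75.6 to 78.3 with vehicle, was not tested. With ET-1, 1 member was called and it fell (2.87% of all genes were called, 1.57% as lower), and with PE 2 members fell and none rose (6.07% of all genes, 3.18% as lower). Med31 fell with both agonists. It lay at 14.2 and 12.7 FPKM with ET-1 and at 13.8 and 13.4 with PE, against 19.5 and 20.2 with vehicle (replicates 1 and 2). The difference was -0.55 ± 0.08 with ET-1 (adjusted p = 0.0222) and -0.53 ± 0.08 with PE (adjusted p = 0.0145), 2 comparisons that share the vehicle libraries.

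Med25 lay at 5.12 and 4.86 with ET-1 and at 5.07 and 4.75 with PE, against 6.48 and 8.71 with vehicle. All 4 agonist libraries were below both vehicle libraries, and the vehicle replicates lay apart from each other. It fell by 0.57 ± 0.14 with PE (adjusted p = 0.0485), and its difference with ET-1 was -0.55 (adjusted p = 0.0719, and 0.0204 with the block). The 2 calls of Med31 ended when any vehicle library or library of that agonist was left out (adjusted p of 0.0545 to 0.149 with ET-1 and 0.0593 to 0.132 with PE). The call of Med25 ended without any 1 of the 12 libraries (adjusted p of 0.0522 to 0.269).

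With the replicate number as a block, 4 members rose and 7 fell with ET-1 (18.4% of all genes called), and 5 rose and 7 fell with PE (24% of all genes). The replicates it separates also differ in the fibroblast sum given above, at 876 to 1334 in replicate 1 and 212 to 324 in replicate 2 of the DMSO groups. Med21 was among those that rose. It lay at 43.8 and 58.4 with ET-1 and at 44.5 and 65.7 with PE, against 28.8 and 34.9 with vehicle, above vehicle in each replicate (0.67 ± 0.27 and 0.76 ± 0.27, adjusted p = 0.218 and 0.139, with the block 0.00877 and 0.00398). Its partner Med7 lay at 16.4 and 20.2 with ET-1 and at 17.1 and 21.4 with PE, against 12.7 and 13.3 with vehicle (0.47 and 0.54, block adjusted p = 0.0128 and 0.00637). Polr2f lay at 129 and 137 with ET-1 and at 116 and 137 with PE, against 89.3 and 104 with vehicle (0.46 and 0.38, block adjusted p = 0.00618 and 0.00903). In these 3 genes every agonist library was above every vehicle library.

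Others called higher with the block were Med10 with ET-1 (0.27) and Med4 (0.31) and Polr2g (0.26) with PE. Med1 was lower with both agonists, at 8.10 and 9.03 with ET-1 and 8.49 and 8.29 with PE, against 9.98 and 11.4 with vehicle (-0.30 and -0.33, block adjusted p = 0.0404 and 0.0256). Ints8 was also lower with both (-0.26 and -0.19), Med23 (-0.28) and Ints13 (-0.20) with ET-1, and Supt5h (-0.21) and Nelfa (-0.24) with PE, beside Med31, Med25 and the Polr2m row. Polr2a was at 1.46 and 1.44 with ET-1 and at 1.67 and 1.68 with PE, against 1.70 and 1.77 with vehicle, and was not called with either agonist, with or without the block.

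PE was also compared with ET-1 directly. No member was called (0.00725% of all genes, 1 gene, was), and the differences ran from -0.25 to 0.15. An unadjusted p under 0.05 was found for 2 of 63 members and 206 of all 13793 genes. The count was also 0 with the block.

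**Figure D5:**
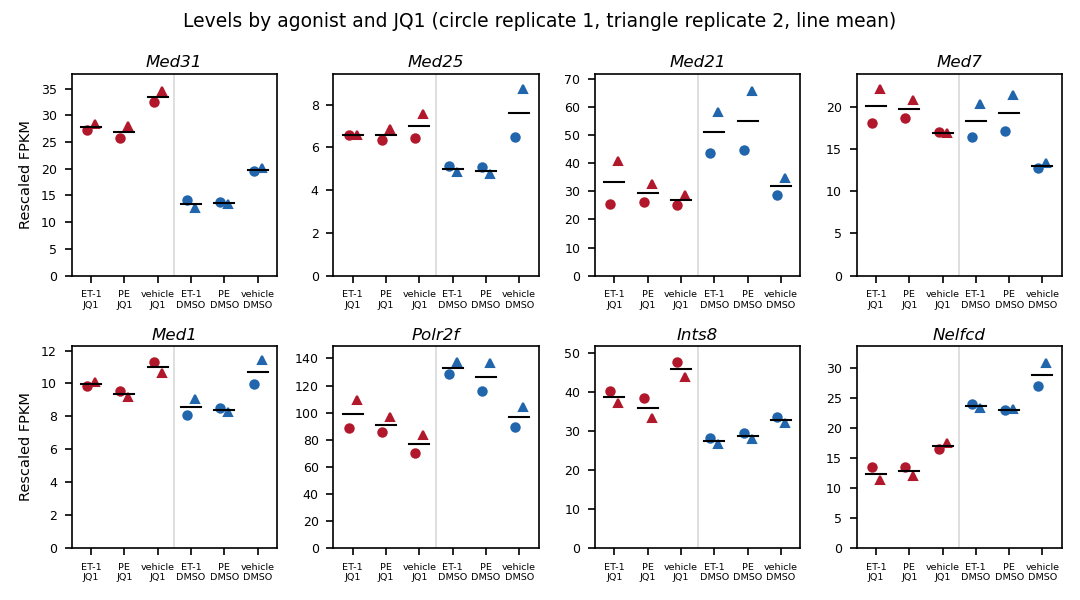
Rescaled FPKM of 8 members in the 6 groups, JQ1 groups in red and DMSO groups in blue, with both replicates and their mean. Among DMSO libraries Med31 and Med25 stand lower, and Med21, Med7 and Polr2f higher, with either agonist than with vehicle.

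Under JQ1 the agonists were again set against vehicle. No member was called with ET-1 (1.36% of all genes were) or PE (0.718% of all genes). An unadjusted p under 0.05 was found for 7 and 5 of 63 members, beside 2355 and 2246 of all 13793 genes. With the block, 2 rose and 4 fell with ET-1 (11.6% of all genes), and 5 fell with PE (12.1% of all genes). Nelfcd lay at 13.5 and 11.3 with ET-1 and at 13.5 and 12.1 with PE, against 16.5 and 17.6 with vehicle, all with JQ1 (-0.45 and -0.40, block adjusted p = 0.0331 and 0.0444). Med31 lay at 27.2 and 28.3 with ET-1 and at 25.7 and 28.0 with PE, against 32.5 and 34.5 with vehicle (-0.27 and -0.32, block adjusted p = 0.062 and 0.0376). In both genes every agonist library was below both vehicle libraries. Ints8 (-0.24 and -0.35) and Ints13 (-0.22 and -0.23) were lower with both agonists under the block, and Med15 (0.30) and Polr2f (0.37) higher with ET-1.

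The interaction asked whether JQ1 changed the agonist effect. No member was called for ET-1 or PE, and neither was any of the 13793 genes (0% each). With an unadjusted p under 0.05 there were 2 of 63 members for each agonist, beside 616 (ET-1) and 717 (PE) of all 13793 genes. Such counts are no result about the members. Med25 had interactions of 0.47 ± 0.19 with ET-1 and 0.49 ± 0.19 with PE, Med31 of 0.28 ± 0.12 with ET-1, and Med4 of -0.34 ± 0.14 with PE, with adjusted p of 0.948 to 1. With the block, 0 members were called for either agonist (0.0363% of all genes with ET-1 and 0.0725% with PE). An unadjusted p under 0.05 was found for 4 and 7 members, beside 1415 and 1716 of all genes.

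Other genes of the same pathway were taken from lists and compared with JQ1 against DMSO as the mean of the 3 treatments, where 30.2% of all tested genes rose, 29.9% fell and the median difference was 0.02. Shares near those of all genes are no result about a list. The lists were not examined under the other scalings, which moved the median of all genes to -0.06 and -0.09. Of the 18 general transcription factor genes, which place the polymerase at the start, 10 rose and 2 fell (median 0.22). They included Gtf2e2 of TFIIE (41.2 ± 2.71 with JQ1, 23.8 ± 1.87 with DMSO, SD, n = 6 each), Ccnh, the cyclin of the TFIIH kinase (42.7 ± 1.32 with JQ1, 25.0 ± 1.73 with DMSO), and Gtf2b (22.5 ± 2.72 with JQ1, 15.1 ± 2.42 with DMSO). Of 14 TFIID subunits 8 rose and 1 fell (median 0.46), with Taf4b (1.34 ± 0.11), Taf10 (0.86 ± 0.10) and Taf13 (0.82 ± 0.05) as the largest differences. Of 17 kinases, phosphatases and termination factors that act on the polymerase tail 11 rose and 3 fell (median 0.32). Ctdsp1, a small phosphatase of that tail, fell by 0.66, and Ssu72, another phosphatase, and the kinase gene Cdk13 rose by 0.53 and 0.50.

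Of 11 genes of the Paf1 complex and other elongation factors 3 rose and 4 fell (median 0.02), with Tcea3 at -0.89 and Paf1 and Rtf1 at 0.65 and 0.64. Of 19 subunits of RNA polymerases I and III 7 rose and 5 fell (median 0.14), among them Polr1d, shared by both enzymes (1.01 ± 0.07), and Polr3d (-0.57). Of 15 cleavage and polyadenylation factors 6 rose and 3 fell (median 0.12), with Cstf3, Clp1 and Cpsf4 at 0.61, 0.56 and 0.49. Of the partners of Integrator, Nabp1 rose (24.2 ± 3.30 with JQ1, 12.3 ± 1.63 with DMSO), its paralogue Nabp2 fell (18.2 ± 1.15 with JQ1, 28.4 ± 3.44 with DMSO), and Ppp2ca, the catalytic subunit of its phosphatase, rose by 0.35, among 5 tested. Both Nabp proteins bind single-stranded DNA in the complex that also holds the product of Ints3. Of 2 partners of the Mediator kinase module, Ccnc, the cyclin, rose by 0.31 and Cdk19 was not called. With ET-1 against vehicle in DMSO cultures none of these 8 lists had a called gene, and with PE 4 lists had 1 each.

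With the replicate number as a block, 7 of the 8 lists had called genes with either agonist, beside 18.4% of all genes with ET-1 and 24% with PE. Of the 19 subunits of RNA polymerases I and III, 4 rose and 0 fell with ET-1, and 5 rose and 1 fell with PE. Of the 14 TFIID subunits, 1 rose and 2 fell with ET-1, and 1 rose and 1 fell with PE. Of the 17 factors that act on the polymerase tail, 1 fell with ET-1 and 3 fell with PE, and none rose. Of the 18 general transcription factor genes, 1 rose and 1 fell with ET-1, and 2 rose and 1 fell with PE. In the mean JQ1 difference the block raised the count of the Paf1 list to 5 that rose and 4 that fell.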

How the data were processed

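RNA was measured in 12 libraries of neonatal rat cardiomyocytes. StringTie 1.3.4d, STAR 2.7.1a, DESeq2 1.24.0 and Trim Galore 0.6.0 were used per the submitters' processing notes, on build rn6 (Rnor_6.0). The kit was stranded and ribosome-depleted, per the labels' protocols. The deposited tables hold FPKM and mean coverage (signal) per base for 41078 transcripts, per the file headers. The sources used here do not say whether quantification used strand. FPKM was summed by gene and divided by median-of-ratios factors of 0.873 to 1.127, taken over the 15551 genes that no library has at 0. No read counts were used. Coverage times length gave 2.341 to 2.965 Gb per library; among the members the least covered was Med18, with 7.64 to 14.9 kb per library.

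A gene entered the test with 1 or more rescaled FPKM in 2 or more libraries. The test was limma 3.58.1 (R 4.3.3, trended and robust variance, 6 group means on all 12 libraries) on log2(rescaled FPKM + 0.5), which understates changes of low genes. P-values were adjusted by Benjamini-Hochberg over 13793 genes within each comparison, with a threshold of 0.05. The procedure was checked on simulated data. Differences are first-named group minus second, ± SE. Tables were handled in Python 3.11.15.

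Replicate numbers are shared by all groups. Same-numbered libraries deviated together in all 15 pairs of groups (correlations of 0.16 to 0.67), so libraries were taken as paired by number. That rests on the values, since no label states it. Block values stand beside results they change.

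The members, lists and tests were chosen with earlier results of these data known. Named by rule were up to 10 called members with the largest differences per comparison, a set of core subunits, and the highest and lowest member of each complex; other members are named to account for all 63. Alternatives were pseudocounts of 0.1 and 1, other filters, scalings, leading transcripts, left-out libraries, the block, and, chosen after seeing the data, the 4-exon Polr2m transcript and summed coverage.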

Additional observations from a re-analysis of the deposited data

How the results depend on the processing

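Of 2814 recomputed values for 125 gene results, 2470 kept their direction and side of the threshold, 317 lost a call, 8 gained one and 19 changed sign. The 125 were all called differences of members, plus core subunits and the highest and lowest of each complex in the mean JQ1 difference. Few of them could therefore gain a call, and the tally does not measure how often calls are gained. Members outside the 125 gained calls under the other scalings, as given above, and with the block. With the replicate block the members called numbered 11 with ET-1 and 12 with PE against vehicle in DMSO, 39 and 38 with JQ1 against DMSO in ET-1 and PE cultures, and 6 and 5 with ET-1 and PE under JQ1; with Polr2m from its 4-exon transcript as well, these were 10, 11, 39, 38, 5 and 4. A fit of the compared groups alone called 0 members with ET-1 and 0 with PE, where 0 of all 13793 genes were called. It called 8 with JQ1 in ET-1 cultures, beside 901 higher and 1445 lower among all genes. In PE cultures it called 13 with JQ1, beside 1395 and 1729. PE against vehicle called 1 with a pseudocount of 0.1 (356 higher and 380 lower of all 13793 genes). That comparison also called 1 with no filter (356 and 453 of 21852) and without trended variance (369 and 458 of 13793). Such counts are no result about the members. Leaving out single libraries gave 0 to 1 called with ET-1, 0 to 2 with PE, 15 to 25 with JQ1 in vehicle, 17 to 24 with JQ1 in ET-1 and 14 to 24 with JQ1 in PE cultures, and 36 to 41 in the mean of the 3; the lowest were without vehicle JQ1 replicate 1 (15), PE JQ1 replicate 1 (14) and PE DMSO replicate 2 (15). The counts with a library left out are given without the share of all genes, so they are no result about the members. The block ended none of the calls among the 125 gene results. Without PE JQ1 replicate 2, Nelfe was called in the mean (-0.387, adjusted p = 0.0294).

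Signs turned for members near 0 in the mean of the 3 JQ1 differences. With FPKM as deposited, Ints6 was -0.058, Med14 -0.055, Med23 -0.059 and Nelfb -0.057. With factors from long genes, Ints6 was -0.089, Med14 -0.085, Med20 -0.006, Med23 -0.088 and Nelfb -0.089. With 1 library left out at a time, Ints6 ranged from -0.014 to 0.062, Med14 from -0.028 to 0.072, Med23 from -0.013 to 0.052 and Nelfb from -0.021 to 0.072. The leading Med12 transcript alone gave 0.085, and 0.784 in ET-1 cultures. FPKM as deposited moved the median of all genes to -0.11 with ET-1, -0.13 with PE and -0.10 with ET-1 under JQ1, and factors from long genes moved that of JQ1 in vehicle cultures to -0.11; the cause was not tested. The call of Ints10 ended with FPKM as deposited. Ints8, Ints11, Med19, Supt6h, Polr2b and Polr2h overlap other genes, and Med16 shares its span with R3hdm4 and Wdr18, so their reads may be mixed. Coverage limits Med18, Polr2i and Polr2h most.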
